A study of Mus musculus with 6 samples.

Results

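Collagen chain genes encode the alpha chains of the collagen superfamily, and all 43 that could be named on the array were compared between SMC and non-SMC lines of a mouse small cell lung carcinoma model. They were chosen by symbol alone, Col followed by a type number, the letter a and a chain number, and were read by 74 of the array's 41174 probes, among 18749 genes with a symbol. The SMC and the non-SMC lines, 3 each, were primary cultures from lung tumours of C57BL/6J mice whose genotype is given as Rb1L/L, Trp53L/L, so both groups share these alleles. The labels do not spell out SMC and give neither a Cre driver nor an age. Each of the 3 pairs holds 1 SMC and 1 non-SMC line. By the labels, pair 2 is male and the other pairs are female. Each line was grown in medium with fetal bovine serum and hybridised once, in 1 colour, to an Agilent whole-genome array. The labels do not number the animals, so p-values measure the spread between these 3 pairs.

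Collagens are extracellular proteins whose chains wind into a triple helix in the endoplasmic reticulum after prolyl and lysyl hydroxylation. Fibrillar collagens form the tensile fibres of the lung stroma, where fibroblasts are their usual main source. Type IV collagen forms the network of basement membranes under epithelium and endothelium, type VI forms beaded microfilaments, the FACIT collagens sit on fibril surfaces, and the transmembrane collagens stay in the plasma membrane of the cell that makes them.

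Each level is a log2 signal minus the 75th percentile of its array's log2 signals, and each difference subtracts the non-SMC from the SMC level. The arrays detected between 64.1% and 68.5% of their probes well above background, with none saturated, and the number of arrays limits the precision. Of the 43 collagen genes, 24, 24 and 27 were well above background in SMC lines 1 to 3, against 30, 35 and 33 in non-SMC lines 1 to 3. A gene was tested where every array of 1 group or of both detected its probe, which admitted 30 collagen genes. Of these, 15 were detected on all 6 arrays, 12 entered only through the non-SMC arrays and 3 only through the SMC arrays. Genes that entered through 1 group alone were detected on fewer arrays of the other group, which favours a difference in that direction. The counts and medians below therefore describe the genes tested and are no evidence about collagens as a set. Of the 13 genes not tested, Col6a6 and Col10a1 were detected on no array and 11 on 1 to 4 arrays. Col12a1 is not analysed here.

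Of the 30 tested collagen genes, 10 were lower in SMC lines at an adjusted p under 0.05 (limma with pair in the fit, Benjamini-Hochberg adjustment over 19859 features), where 3.03% of all features were lower. None was higher at that threshold, where 0.156% of all features were higher, while the unadjusted p was under 0.05 for 2 collagens that were higher and 16 that were lower, as it was for 15% and 11.8% of all features. Of the 10 lower collagens, 5 were detected on no SMC array, 2 on some SMC arrays and 3 on all arrays. The counts over all features were 31 higher and 602 lower, and they were 240 higher and 975 lower when arrays were scaled on their median. The median collagen difference was -3.93, against 0.18 over all features, and 23 of the 30 differences were negative, as were 41.6% of those of all features. Among the tested collagens, 18 had every SMC array below every non-SMC array, as did 15.4% of all features. Col19a1 alone had every SMC array above every non-SMC array, as did 22.8% of all features, and 11 overlapped. In bulk RNA from a culture, fewer cells of a type and less RNA per cell cannot be told apart.

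**Figure D1:**
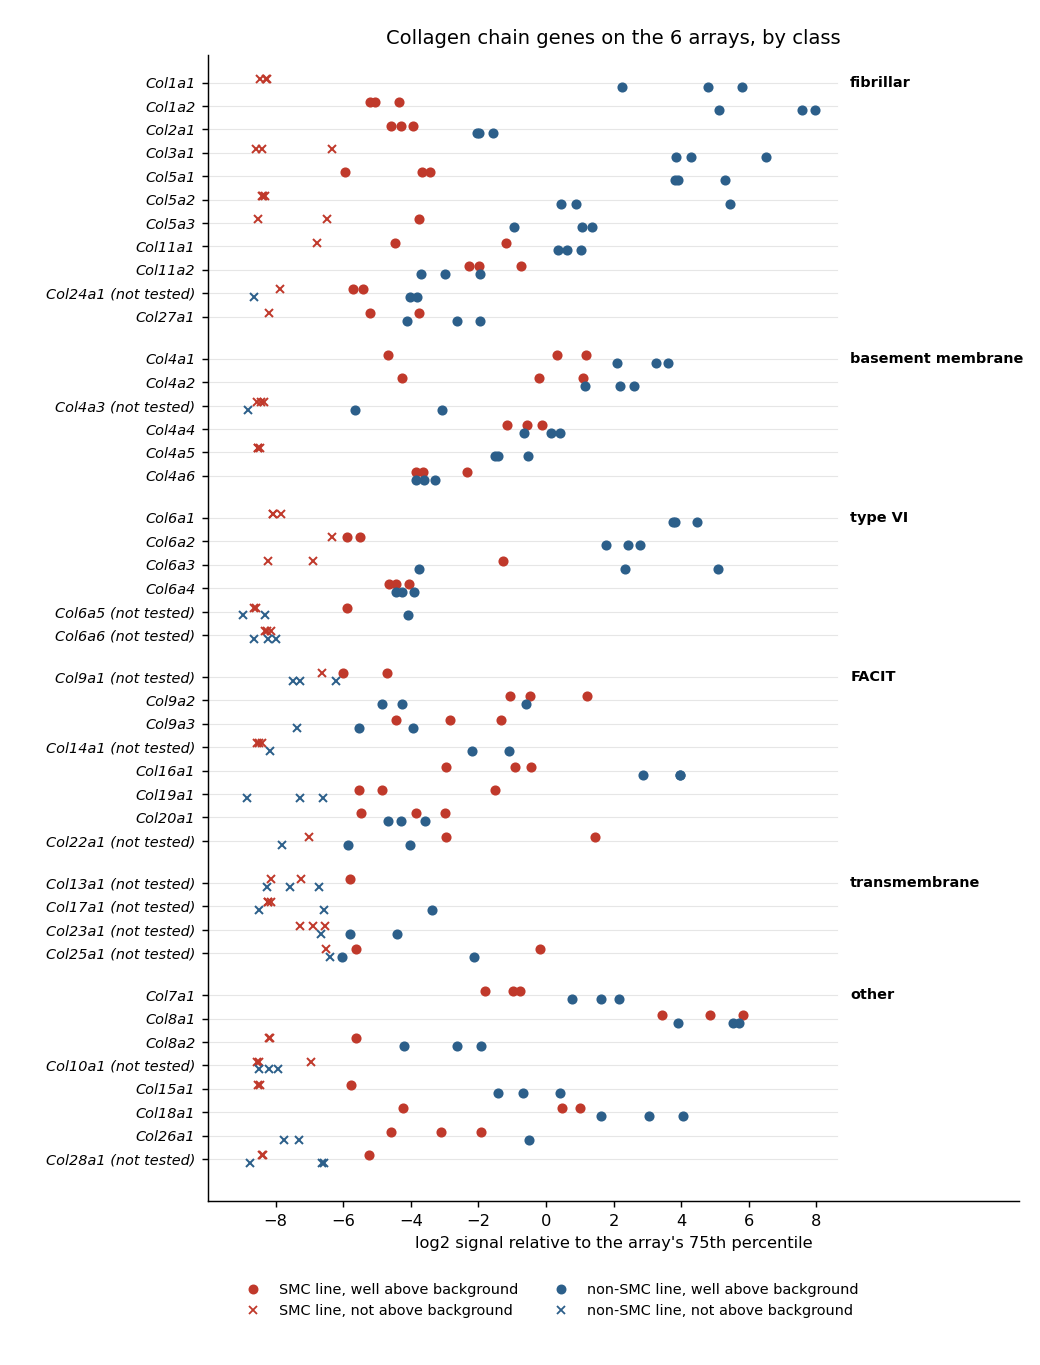
Log2 signal relative to the array's 75th percentile for all 43 collagen chain genes by class, with 1 point per array, SMC lines in red and non-SMC lines in blue, and crosses where the probe was not well above background. In 18 tested genes the 3 SMC lines sit below the 3 non-SMC lines, with the widest gaps in Col1a1, Col1a2, Col3a1 and Col6a1, while Col8a1 and Col4a4 overlap; levels of different genes come from different probes and are not compared.

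Fibrillar collagens carried most of the calls. Of 11 genes in this class 10 were tested and 6 were lower in SMC lines, where 3.03% of all features were lower. These were Col1a1, Col1a2, Col2a1, Col3a1, Col5a1 and Col5a2, and the class median was -7.72. Col1a1 and Col1a2 encode the chains of type I collagen, the main fibre of bone, skin and tendon. The Col1a1 signal was -8.45, -8.25 and -8.29 in SMC lines 1 to 3, against 2.26, 4.79 and 5.79 in non-SMC lines 1 to 3. It was well above background on no SMC array and on every non-SMC array, and at least 1530-fold lower in SMC lines (fitted difference -12.61 ± 0.75, SE over 3 pairs, adjusted p = 0.0114). With 1 pair left out this bound was between 901-fold and 2970-fold, lowest without pair 3. The other 2 Col1a1 probes, dimmer and also detected on no SMC array, gave bounds of 306-fold and 36.6-fold. Such a bound sets the mean of the brighter group against the mean, in the dimmer group, of whichever is higher on each array, the probe's signal or the lowest signal well above background. Col1a2 was detected on all 6 arrays. Its signal was -5.07, -5.22 and -4.36 in SMC lines, against 7.95, 5.13 and 7.57 in non-SMC lines, a gap wider than the spread inside either group. The Col1a2 difference was -11.76 ± 0.61 (adjusted p = 0.00847), and it lay between -12.64 and -9.74 under the other settings.

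Col3a1 encodes the chain of type III collagen, the reticular fibre of vessels and lung. Its signal was -8.59, -8.41 and -6.33 in SMC lines, none well above background, against 6.51, 3.85 and 4.28 in non-SMC lines. Col3a1 was at least 2320-fold lower in SMC lines (fitted difference -12.66 ± 0.96, adjusted p = 0.0168), a bound that was 1280-fold without pair 1. A second, dimmer Col3a1 probe ran the same way without passing, with a difference of -5.26 (adjusted p = 0.10 with every probe tested on its own).

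Printed here are stretches of 250 bases upstream of the annotated start (RefSeq, GRCm38.p6) for a pair of these fibrillar genes, shown because both moved by over 10 log2 units and their starts are unlike. Capitals mark a CCAAT box, the GC box letters GGGCGG, the TATA box letters TATAAA and a TEAD motif (CATTCC) on either strand. The Col1a2 stretch lies at chr6:4505368-4505617 on the plus strand, and the Col3a1 stretch at chr1:45311288-45311537 on the plus strand.
Col1a2: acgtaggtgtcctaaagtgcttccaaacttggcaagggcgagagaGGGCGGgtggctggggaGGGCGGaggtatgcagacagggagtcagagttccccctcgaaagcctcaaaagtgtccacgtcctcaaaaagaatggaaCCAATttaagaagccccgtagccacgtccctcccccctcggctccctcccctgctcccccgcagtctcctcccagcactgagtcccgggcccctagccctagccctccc
Col3a1: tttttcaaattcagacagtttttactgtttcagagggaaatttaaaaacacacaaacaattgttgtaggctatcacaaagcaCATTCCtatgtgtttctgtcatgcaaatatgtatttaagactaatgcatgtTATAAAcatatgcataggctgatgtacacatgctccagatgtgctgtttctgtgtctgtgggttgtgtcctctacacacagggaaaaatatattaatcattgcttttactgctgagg
The Col1a2 stretch holds 1 CCAAT, 109 bases before the start, and 2 GGGCGG. The Col3a1 stretch holds 1 TATAAA, 117 bases before the start, and 1 CATTCC.

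Type V collagen co-assembles with type I and limits fibril diameter. Its Col5a1 chain had signals of -5.95, -3.43 and -3.66 in SMC lines, against 5.30, 3.92 and 3.81 in non-SMC lines. Every array detected Col5a1, and its difference was -8.69 ± 0.94 (adjusted p = 0.0326). A second Col5a1 probe gave a smaller difference of -5.23, and the mean of both probes gave -6.96. Col5a2, the partner chain, read -8.39, -8.30 and -8.37 in SMC lines, against 5.43, 0.90 and 0.44 in non-SMC lines. Its SMC values all lay below detection, its non-SMC values spanned nearly 5 log2 units with line 1 the highest, and it was at least 376-fold lower (fitted difference -10.61 ± 1.16, adjusted p = 0.0335), or 121-fold without pair 1, passing in 15 of 18 other settings. Col5a3, a chain of more restricted tissues, read -8.53, -6.49 and -3.76 in SMC lines, against 1.06, 1.35 and -0.95 in non-SMC lines. Here the groups did not overlap, but SMC line 3 lay nearest to the non-SMC lines and the difference of -6.74 ± 1.45 did not pass (adjusted p = 0.109). The other Col5a3 probe, which was not kept, had overlapping groups and a positive pair 3 difference of 0.86.

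Cartilage collagens formed a smaller and mixed group. Col2a1, the chain of the main cartilage fibril, read -4.30, -4.60 and -3.94 in SMC lines, against -1.99, -2.04 and -1.56 in non-SMC lines. It was detected on all 6 arrays with little spread in either group, and its difference of -2.42 ± 0.28 was the smallest among the 10 collagens that passed (adjusted p = 0.0378). The other Col2a1 probe was detected on no SMC array and on every non-SMC array and was at least 31.9-fold lower (fitted difference -6.01, adjusted p = 0.0353 with every probe tested on its own), and the mean of both probes gave -4.21. Col2a1 passed in 14 of 19 other settings, and leaving out any 1 pair ended its call. Col11a1, a minor chain of cartilage fibrils, read -6.77, -4.46 and -1.19 in SMC lines, against 1.04, 0.36 and 0.61 in non-SMC lines, and did not pass (-4.81 ± 1.25, adjusted p = 0.129). The SMC lines differed by over 5 log2 units among themselves in Col11a1, and the non-SMC lines by under 1. Col11a2, the other type XI chain, was the 1 fibrillar gene with a positive difference, at 1.21 ± 0.54 (adjusted p = 0.246), with -2.27, -1.99 and -0.75 in SMC lines and -3.71, -1.94 and -2.98 in non-SMC lines. Its groups overlapped, and the 95% interval of its difference ran from -0.29 to 2.70. Of the minor fibrillar chains, Col27a1 had overlapping groups (-2.84 ± 1.24, adjusted p = 0.235) and Col24a1 was not tested, with 2 arrays of each group detecting it.

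**Figure D2:**
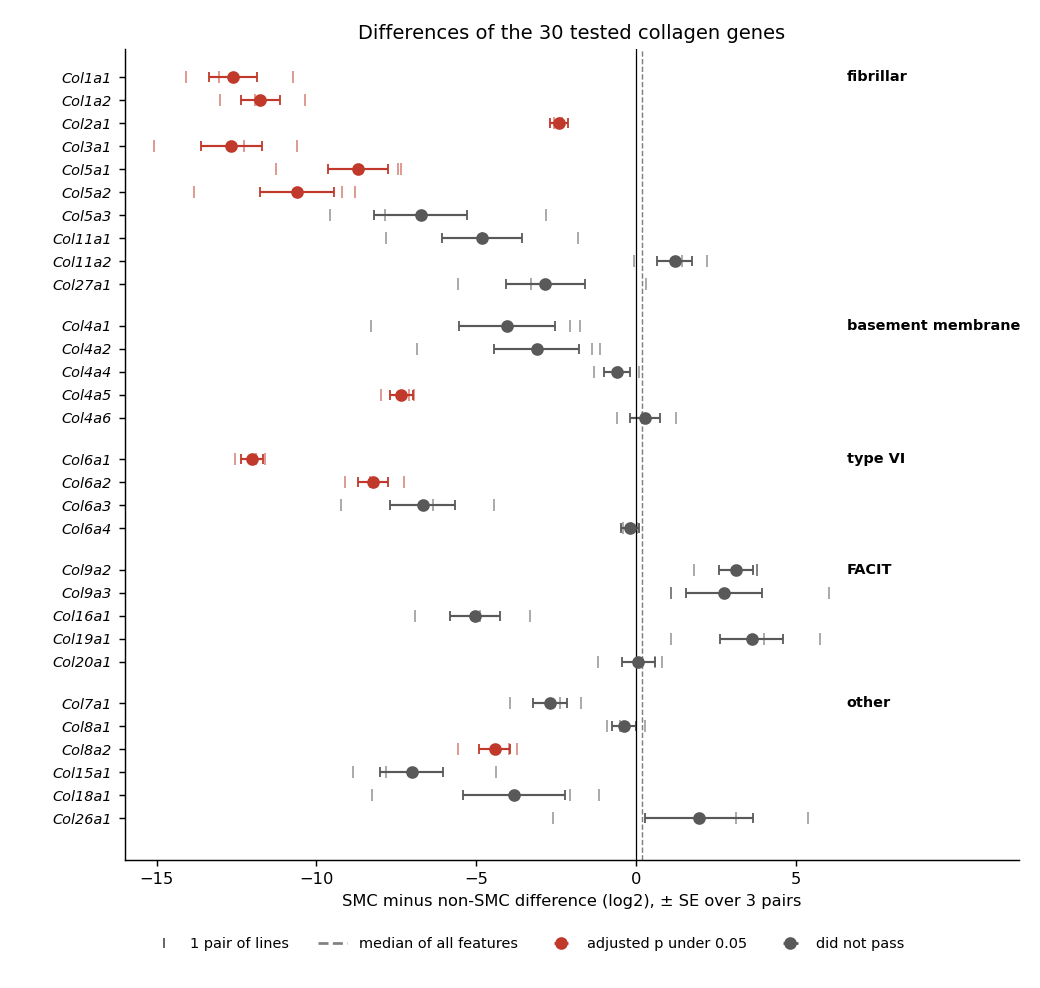
SMC minus non-SMC difference (log2) of the 30 tested collagen genes, with the fitted value and its SE as a point and bar, 1 tick per pair of lines, red where the adjusted p was under 0.05, and a dashed line at the median of all features (0.18). The 10 red genes lie between -12.66 and -2.42, 6 of them fibrillar, and the positive values are in Col11a2, Col4a6, Col9a2, Col9a3, Col19a1, Col20a1 and Col26a1. Each gene is shown by its brightest kept probe, and the other kept Col4a6 probe gave -6.49.

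Of the tested collagens, 19 were negative in all 3 pairs, 3 were positive in all 3 and 8 were mixed. These signs were not counted over all features, so they are no result about collagens as a set. The 12 genes that entered only through the non-SMC arrays were also favoured to be negative. Only pair 2 was hybridised wholly on the 1 slide that carried 4 of the 6 arrays; SMC line 3 and non-SMC line 1 lay on slides of their own. In pair 2 all 10 called genes were negative, between -13.04 and -2.56, but the fit that called them includes pair 2, so this is no separate check. With only the 4 arrays of the shared slide, which the main fit also holds, the same 10 collagens passed and no other did, beside 3.08% of all features lower. Without pair 3, limma called 0 features over the whole array in either direction, 0 collagens among them, while 18 collagens and 8.77% of all features were lower at an unadjusted p under 0.05.

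The type IV chains of basement membranes split by gene. Of 6 genes 5 were tested and 1 was lower, Col4a5, beside 3.03% of all features, with a class median of -3.11. Col4a5 encodes a chain found in kidney, lung and other specialised basement membranes. It read -8.53, -8.46 and -8.51 in SMC lines, none well above background, against -1.42, -1.52 and -0.54 in non-SMC lines. The non-SMC spread was under 1 log2 unit, and Col4a5 was at least 35.2-fold lower in SMC lines (fitted difference -7.34 ± 0.36, adjusted p = 0.00821). The SMC signals lay below detection, so their small spread does not measure differences between those lines.

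Col4a6, a chain of smooth muscle and other specialised basement membranes, starts 1343 bases from Col4a5 on the X chromosome and on the opposite strand (RefSeq, GRCm38.p6). The brightest Col4a6 probe read -3.85, -3.64 and -2.35 in SMC lines, against -3.27, -3.84 and -3.60 in non-SMC lines. These groups overlapped, with a difference of 0.29 ± 0.46 (95% interval from -0.99 to 1.56, adjusted p = 0.720). Another Col4a6 probe read -8.09, -8.02 and -8.06 in SMC lines, none well above background, against -2.68, -1.19 and -0.82 in non-SMC lines. That probe gave -6.49 (adjusted p = 0.0142 with every probe tested on its own), and the mean of the probes gave -3.10 (adjusted p = 0.0224). A further Col4a6 probe, which was not kept, was detected on no SMC array and had every SMC array below every non-SMC array. Which transcripts each Col4a6 probe reads was not tested. Col4a6 was the 1 of 14 collagens with several kept probes whose probes differed in sign.

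The 250 bases upstream of each start of this gene pair are printed because 1 gene passed and its neighbour gave probes of both signs. Capitals mark a CCAAT box and a GC box on either strand. The Col4a5 stretch lies at chrX:141475169-141475418 on the plus strand and the Col4a6 stretch at chrX:141474077-141474326 on the minus strand.
Col4a5: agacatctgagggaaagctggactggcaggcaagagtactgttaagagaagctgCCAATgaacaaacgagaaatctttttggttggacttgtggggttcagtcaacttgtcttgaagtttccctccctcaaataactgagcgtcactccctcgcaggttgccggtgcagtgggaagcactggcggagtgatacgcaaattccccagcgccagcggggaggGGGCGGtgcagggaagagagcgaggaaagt
Col4a6: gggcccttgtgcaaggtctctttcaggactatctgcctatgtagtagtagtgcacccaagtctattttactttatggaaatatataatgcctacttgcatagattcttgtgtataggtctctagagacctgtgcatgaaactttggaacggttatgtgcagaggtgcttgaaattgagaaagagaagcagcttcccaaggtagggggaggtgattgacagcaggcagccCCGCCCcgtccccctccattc
Col4a5 holds 1 CCAAT and 1 GGGCGG in this stretch, and Col4a6 holds 1 GGGCGG and no CCAAT.

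Col4a1 and Col4a2 encode the chains of the type IV collagen found in nearly all basement membranes, and their annotated starts lie 21 bases apart on opposite strands of chromosome 8 (GRCm38.p6). Col4a1 read 1.19, 0.34 and -4.66 in SMC lines, against 3.26, 2.10 and 3.62 in non-SMC lines. Col4a2 read 1.09, -0.22 and -4.25 in SMC lines, against 2.20, 1.16 and 2.60 in non-SMC lines. In both genes the groups did not overlap, SMC line 3 was the lowest by far, and every array detected them. Neither difference passed (Col4a1 -4.04 ± 1.51, adjusted p = 0.194; Col4a2 -3.11 ± 1.34, adjusted p = 0.232), and without pair 3 the Col4a1 difference was -1.92 and the Col4a2 difference -1.25. Col18a1, a basement membrane collagen whose end fragment is endostatin, shared the low value of SMC line 3, with 0.48, 1.02 and -4.22 in SMC lines, against 1.62, 3.06 and 4.04 in non-SMC lines (-3.82 ± 1.59, adjusted p = 0.222). Its groups did not overlap either. Col4a4, a chain of kidney and lung basement membranes, did not share this drop, with -1.16, -0.57 and -0.12 in SMC lines and 0.16, -0.66 and 0.42 in non-SMC lines (-0.59 ± 0.40, adjusted p = 0.395, 95% interval from -1.69 to 0.51). Col4a3 was not tested, since only non-SMC lines 2 and 3 detected it, at -5.64 and -3.08.

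Epithelial markers were also low in SMC line 3. Epcam, an epithelial adhesion protein, read 3.38, 4.39 and -2.06 in SMC lines, against -6.34, 2.61 and 2.51 in non-SMC lines. Krt8, a keratin of simple epithelium, read 6.63, 7.18 and 0.56 in SMC lines, against -0.50, 6.82 and 7.01 in non-SMC lines. Both markers were low in SMC line 3 and in non-SMC line 1, whereas Col4a1, Col4a2 and Col18a1 were low in SMC line 3 alone. Not every epithelial marker had this layout. Krt19 was about as low in SMC line 2 (-4.49) as in SMC line 3 (-4.82), and Cldn4 was undetected in SMC line 1 (-8.62) as well as in SMC line 3 (-8.52). Over all 9 epithelial markers the log2 of the summed level was 7.59, 8.59 and 2.36 in SMC lines, against 0.53, 8.68 and 8.90 in non-SMC lines. The part of epithelial content in the type IV result was not tested.

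**Figure D3:**
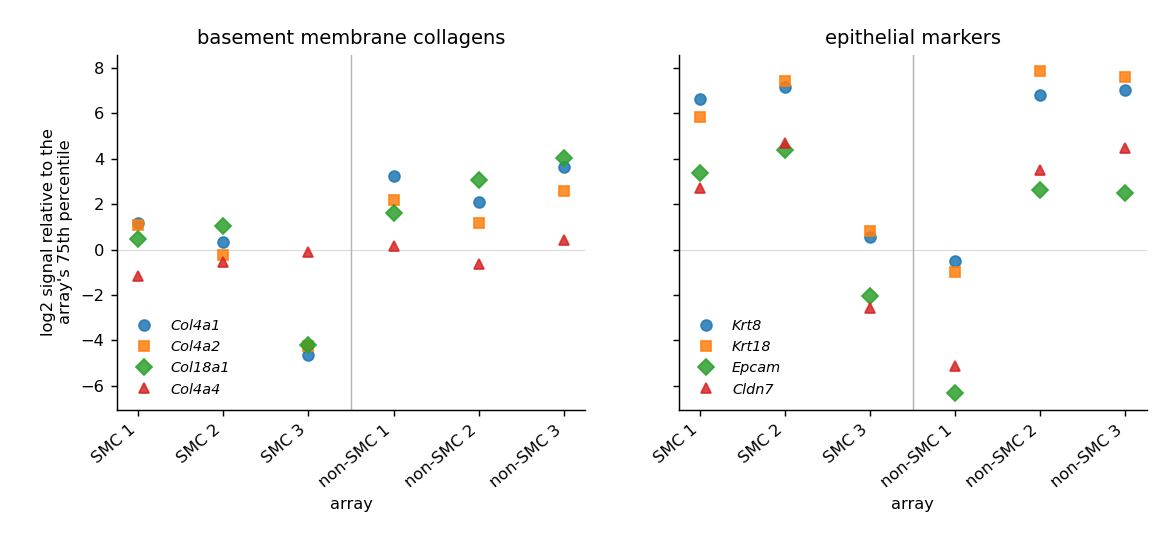
Log2 signal relative to the array's 75th percentile of Col4a1, Col4a2, Col18a1 and Col4a4 (left panel) and of Krt8, Krt18, Epcam and Cldn7 (right panel), with 1 point per gene and array, SMC lines left of non-SMC lines. In SMC line 3 Col4a1, Col4a2 and Col18a1 lie between -4.66 and -4.22 while Col4a4 is at -0.12, and the epithelial markers shown are low in SMC line 3 and non-SMC line 1.

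Type VI collagen was lower in SMC lines in Col6a1 and Col6a2, 2 of 4 tested genes among 6 in the class, beside 3.03% of all features. The class median was -7.46. Col6a1 and Col6a2, whose chains assemble with that of Col6a3, are widely made by stromal cells. Col6a1 read -8.08, -8.09 and -7.85 in SMC lines, none well above background, against 4.48, 3.81 and 3.76 in non-SMC lines. The non-SMC spread was under 1 log2 unit, the small SMC spread is that of undetected signals, and Col6a1 was at least 1280-fold lower (fitted difference -12.02 ± 0.34, adjusted p = 0.00703). Col6a2 read -6.32, -5.90 and -5.51 in SMC lines, of which 2 were above background, against 2.78, 2.42 and 1.77 in non-SMC lines. Its difference was -8.23 ± 0.46 (adjusted p = 0.00966). The undetected signal of SMC line 1 already lay above that array's lowest detected one (-6.39), so raising dim signals to that level could not change the difference.

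Col6a3 behaved less evenly. It read -1.26, -8.22 and -6.89 in SMC lines, against 5.08, -3.77 and 2.35 in non-SMC lines. All 3 pairs were negative on this probe (-6.34, -4.44 and -9.24), but SMC line 1 lay above non-SMC line 2, so the groups overlapped and the difference of -6.68 ± 1.02 did not pass (adjusted p = 0.0631). The other Col6a3 probes, which were not kept, were undetected on every SMC array and in non-SMC line 2. Their pair 2 differences were -0.02 and 0.03. Col6a4 showed no difference past its error, at -0.18 ± 0.29 (95% interval from -0.97 to 0.62, adjusted p = 0.726). The remaining chains of this class, Col6a5 and Col6a6, were not tested: Col6a5 was detected on 1 array of each group.

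The stretches upstream of Col6a1 and of the farther annotated Col6a2 start are printed because these neighbouring genes of chromosome 10 fell together. Capitals mark an AP-1 motif (TGANTCA) and a GC box on either strand. Col6a1 lies at chr10:76726045-76726294 and Col6a2 at chr10:76623631-76623880, both on the minus strand (RefSeq, GRCm38.p6).
Col6a1: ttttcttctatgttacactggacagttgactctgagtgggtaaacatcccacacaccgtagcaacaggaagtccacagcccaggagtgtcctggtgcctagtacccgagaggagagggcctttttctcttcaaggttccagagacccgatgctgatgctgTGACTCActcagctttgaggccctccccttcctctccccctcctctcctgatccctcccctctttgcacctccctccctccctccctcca
Col6a2: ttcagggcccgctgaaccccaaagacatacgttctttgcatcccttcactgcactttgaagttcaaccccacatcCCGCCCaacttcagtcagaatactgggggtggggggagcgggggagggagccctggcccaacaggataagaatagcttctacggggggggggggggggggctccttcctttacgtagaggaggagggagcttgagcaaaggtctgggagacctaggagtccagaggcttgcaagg
The Col6a1 stretch holds 1 AP-1 motif, 90 bases before the start, and the Col6a2 stretch holds 1 GGGCGG.

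Promoter stretches of this length were found for 35 of the 43 genes, 7 of them among the 10 that were lower. Both strands were searched for 6 motifs, reading for each gene the start farthest upstream alone, and matches of different motifs that overlap were counted for each. GGGCGG, the GC box, was in 5 of the 7 lower collagens and 16 of the 28 others, against 32.7% of all 32851 stretches. CCAAT was in 2 of 7 and 10 of 28, against 33.8%. TATAAA was in 1 of 7 and 4 of 28, against 12.4%, and CATTCC, the core of the TEAD motif, in 1 of 7 and 1 of 28, against 12.6%. TGANTCA was in 1 of 7 and 0 of 28, against 6.70%, and CAGGTG, an E-box, in 0 of 7 and 4 of 28, against 17.2%. A match describes letters in a window and shows no binding.

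FACIT collagens were the class whose tested genes mostly had positive differences, 4 of 5, with a class median of 2.75 and no gene past the threshold in either direction (limma). At an unadjusted p under 0.05, 2 were higher and 1 lower, as were 15% and 11.8% of all features. Col9a2, a type IX chain that coats cartilage fibrils, read -1.07, 1.22 and -0.47 in SMC lines, against -4.86, -0.60 and -4.27 in non-SMC lines. It was higher in SMC in all 3 pairs, but non-SMC line 2 reached into the SMC range and the difference of 3.14 ± 0.54 missed the threshold (adjusted p = 0.0783). It passed without pair 2 (adjusted p = 0.0432), without non-SMC line 2 and no pair in the fit (adjusted p = 0.0249) and with arrays scaled on their median (adjusted p = 0.0319). Its partner chain Col9a3 read -1.32, -2.84 and -4.44 in SMC lines, against -7.37, -3.94 and -5.54 in non-SMC lines (2.75 ± 1.19, adjusted p = 0.233). Col9a1, the remaining type IX chain, was detected in SMC lines 1 and 3 and in no non-SMC line, at -6.00 and -4.69, and was not tested.

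Col19a1, a collagen of basement membrane zones and of synapses, read -4.84, -5.52 and -1.52 in SMC lines, against -8.84, -6.61 and -7.28 in non-SMC lines. No non-SMC array detected it and all SMC arrays did, so it was at least 5.27-fold higher, or 2.52-fold without pair 3, but the fitted difference of 3.62 ± 0.99 did not pass (adjusted p = 0.137). The other 2 Col19a1 probes were detected in SMC line 3 alone. Col16a1, which is made by fibroblasts and smooth muscle, went the other way. It read -2.96, -0.44 and -0.91 in SMC lines, against 3.95, 2.88 and 3.97 in non-SMC lines, without overlap, at -5.04 ± 0.78 (adjusted p = 0.0649). Col16a1 passed in 8 of 19 other settings. Its dimmer second probe was detected on no SMC array and was at least 6.93-fold lower (adjusted p = 0.0492 with every probe tested on its own). Col20a1 had a difference of 0.08 ± 0.52 (95% interval from -1.36 to 1.53, adjusted p = 0.934). Of the FACIT genes not tested, Col14a1, known from dense connective tissue, was detected on no SMC array and at -1.08 and -2.19 in non-SMC lines 2 and 3. Another Col14a1 probe was detected on no array. Col22a1, a collagen of muscle and tendon junctions, read -7.01, -2.96 and 1.46 in SMC lines, against -5.87, -4.03 and -7.82 in non-SMC lines, so its highest value was in SMC line 3.

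None of the 4 transmembrane collagens was detected on all arrays of a group, and none was tested. On its brightest probe Col25a1, known from neurons, was highest in the lines of pair 2, at -0.17 in the SMC line and -2.14 in the non-SMC line. Its other SMC values were -6.51 and -5.62, and its other non-SMC values were -6.03 and -6.39. Col17a1, a hemidesmosome protein of epithelium, was well above background in non-SMC line 3 alone, at -3.37. Col13a1 was detected in SMC line 3 alone (-5.81), and Col23a1 in non-SMC lines 1 and 3 alone (-5.81 and -4.40). The other probes of Col25a1, Col17a1 and Col13a1 were detected on no array.

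The remaining collagens, network-forming, anchoring and multiplexin types, held 1 lower gene among 6 tested of 8, beside 3.03% of all features, with a median of -3.26. Col8a2 and Col8a1 encode the short chains of the network in Descemet's membrane and vessel walls. Col8a2 read -8.17, -8.20 and -5.63 in SMC lines, of which line 3 alone was above background, against -4.20, -2.62 and -1.93 in non-SMC lines. Its difference was -4.42 ± 0.49 (adjusted p = 0.0347), or -3.15 with dim signals set to the lowest detected one, and it passed in 8 of 18 other settings. Col8a1 read 3.42, 5.82 and 4.84 in SMC lines, against 3.92, 5.53 and 5.72 in non-SMC lines. Both groups stood far above background and overlapped, with a difference of -0.37 ± 0.37 (95% interval from -1.38 to 0.64, adjusted p = 0.557).

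Col15a1, a multiplexin next to basement membranes, read -5.78, -8.51 and -8.46 in SMC lines, against -1.41, -0.69 and 0.41 in non-SMC lines. SMC line 1 alone detected it, and its difference of -7.02 ± 0.99 lay just short of the threshold (adjusted p = 0.0552), which it passed in 13 of 18 other settings. Col7a1, the anchoring fibril of epithelial basement membranes, read -1.80, -0.97 and -0.76 in SMC lines, against 2.15, 0.76 and 1.62 in non-SMC lines (-2.69 ± 0.54, adjusted p = 0.101). Its groups did not overlap. Col26a1 read -1.92, -3.10 and -4.60 in SMC lines, against -7.32, -0.49 and -7.75 in non-SMC lines, the non-SMC line of pair 2 being the highest of all (1.98 ± 1.69, adjusted p = 0.495). Col28a1, a collagen of peripheral nerve, was detected in SMC line 1 alone, at -5.23.

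Genes that fold, process and bind collagen were set beside the chains. Their counts stand against the 3.03% of all features that were lower and the median of 0.18 over all features. In folding and hydroxylation, 2 of 18 tested genes were lower in SMC lines, with a median of -1.78: P4ha3 and P3h2. P4ha3, a prolyl 4-hydroxylase subunit, read -6.23, -8.37 and -8.35 in SMC lines, against -2.33, -4.16 and -4.03 in non-SMC lines. No SMC array detected it, and it was at least 6.68-fold lower (fitted difference -4.15 ± 0.29, adjusted p = 0.0144). P3h2, a prolyl 3-hydroxylase, differed by -2.79 ± 0.34 (adjusted p = 0.0429). Serpinh1, the collagen chaperone of the endoplasmic reticulum, was not tested, with -5.69, -8.33 and -6.36 in SMC lines and -6.54, 4.33 and 3.55 in non-SMC lines. Fkbp10, another collagen chaperone, had the same layout, with -3.11, -1.08 and -1.56 in SMC lines and -3.09, 4.42 and 4.13 in non-SMC lines (-3.74 ± 1.33, adjusted p = 0.184). Non-SMC line 1 was thus low in both chaperones, although its Col1a1, Col1a2 and Col3a1 signals were far above those of every SMC line.

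Export, processing and crosslinking held 8 lower genes among 14 tested, where 3.03% of all features were lower, with a median of -4.94. Pcolce, which speeds removal of the procollagen C-terminal end, read -4.27, -3.76 and -2.13 in SMC lines, against 7.77, 6.49 and 6.84 in non-SMC lines (-10.42 ± 0.68, adjusted p = 0.0127). Adamts2, the enzyme that removes the N-terminal end, read -3.61, -6.74 and -6.56 in SMC lines, against 4.63, 3.17 and 3.41 in non-SMC lines (-9.37 ± 0.48, adjusted p = 0.00847). Neither gene overlapped between the groups. The lysyl oxidases of this list crosslink collagen and elastin: Loxl1, detected on no SMC array, was at least 269-fold lower (fitted difference -9.50 ± 0.65, adjusted p = 0.0139), and Loxl2 differed by -9.45 ± 0.95 (adjusted p = 0.0285). The other 4 lower genes were Pcolce2, Loxl3, Loxl4 and Tgm2, and Lox is not analysed here.

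Among proteoglycans and glycoproteins that bind fibrils, 4 of 12 tested genes were lower (3.03% of all features), with all 12 differences negative and a median of -6.56. Ogn, or osteoglycin, was detected on no SMC array and was at least 222-fold lower (fitted difference -10.10 ± 0.74, adjusted p = 0.0154), or 121-fold without pair 2. Fbln2, a fibulin of elastic fibres, differed by -9.81 ± 1.02 (adjusted p = 0.0301), and Fn1, fibronectin, by -8.71 ± 0.70 (adjusted p = 0.0185). Tnc, tenascin C, was at least 192-fold lower (fitted difference -9.08 ± 0.47, adjusted p = 0.00847). Dcn, the collagen-binding proteoglycan decorin, did not follow this pattern, with 0.66, -3.92 and -4.97 in SMC lines and -4.58, 4.76 and 5.11 in non-SMC lines (-4.51 ± 3.44, adjusted p = 0.446). In pair 1 Dcn was higher in the SMC line, the reverse of Col1a1, Col1a2 and Col3a1 in that pair. Of 6 tested collagen receptors 1 was lower, against the same 3.03%, the integrin subunit Itga11, which binds fibrillar collagen, at -8.16 ± 0.50 (adjusted p = 0.0120). No gene of these 4 lists was higher, at an adjusted or unadjusted p under 0.05 (limma). Counts in these lists moved with pair in the fit: without it 4 folding genes and 7 fibril-binding genes were lower, beside 4.91% of all features. Without pair 3 no gene of the lists was lower, beside 0% of all features.

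**Figure D4:**
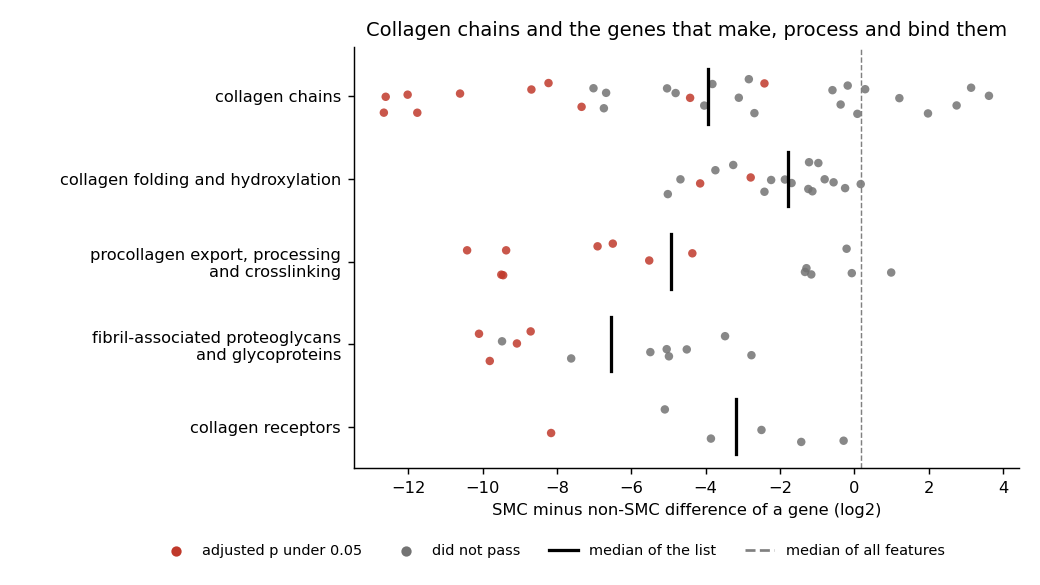
SMC minus non-SMC difference (log2) of each tested gene, by list, with 1 point per gene, red where the adjusted p was under 0.05, a bar at the list's median and a dashed line at the median of all features (0.18). The list medians run from -6.56 for fibril-associated genes to -1.78 for folding genes, and the collagen chains span -12.66 to 3.62.

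Markers of other cell types were read on the same arrays. Of 10 fibroblast markers 8 were tested, and Pdgfrb and S100a4 were lower in SMC lines, beside 3.03% of all features. Thy1 and Pi16 had positive differences, and Pi16 was higher at an unadjusted p under 0.05 (limma), as were 15% of all features. Every SMC array was above every non-SMC array in Pi16, as in 22.8% of all features. The log2 of the list's summed level was 0.31 to 2.37 in SMC lines, against 5.60 to 8.10 in non-SMC lines, with Dpt, a dermal and stromal matrix gene, detected on no array and Lum on 1. S100a4 alone read 7.92 in non-SMC line 1, where the sum was 8.10. The list shares Dcn and Lum with the fibril-binding list. Smooth muscle and pericyte markers summed to 3.03 to 3.66 in SMC lines, against 4.91 to 6.48 in non-SMC lines. None of the 5 tested passed the threshold, and 3 were lower at an unadjusted p under 0.05 (limma), as were 11.8% of all features. Of 5 mesothelial markers only Msln was detected on every non-SMC array, at 0.15, 5.55 and 5.88, which is nearly the whole of the list's sum there (0.17 to 5.88, against -4.78 to -2.95 in SMC lines). Upk3b was detected nowhere, and Lrrn4 was detected in SMC line 2 alone. Leukocyte markers summed to between -2.74 and 0.40 in SMC lines, against -1.10 to 3.61 in non-SMC lines, the highest in non-SMC line 3. Endothelial markers summed to 4.40, 3.49 and -1.33 in SMC lines, against -2.96, 3.61 and -1.78 in non-SMC lines, and these sums followed Vwf, at 4.39, 3.47 and -1.88 in SMC lines and -4.84, 3.57 and -2.55 in non-SMC lines. Pecam1, Cdh5, Tie1 and Cldn5 of that list were detected on no array. Neuroendocrine markers, those of the labelled tumour type, summed to 8.08 to 8.57 in SMC lines, against 4.39 to 7.23 in non-SMC lines. All 12 had positive differences and 10 were higher at an unadjusted p under 0.05, as were 15% of all features, but 0 passed the adjustment (limma). The part of each of these cell types in the collagen differences was not tested.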

How the data were processed

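Per the labels' protocols, total RNA of 6 primary lines was isolated with TRIzol, amplified and labelled with Cy3, 1 array per line. The scans were quantified with Agilent Feature Extraction, version 10.7.3.1 per the file headers and 10.7 per the submitters' processing notes. The deposited intensity used here is the processed signal, background-subtracted within the array and not normalized between arrays. The deposited series table holds log2 values, quantile-normalized with a median of 5.07 in every column; its columns correlated at 0.996 to 0.999 with the same array's log2 processed signal and at 0.960 or below with other arrays, which settles scale and direction. For earlier steps, nothing is given in the sources used here.

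Outlier flags and 1639 control spots were left out, spots of a probe averaged, and log2 intensity taken relative to each array's 75th percentile (484.6 to 696.4 units). Probes were kept if every array of 1 group or of both detected them well above background, and the brightest kept probe stood for a gene. The files used hold no gene name column, so 27479 probes were named by matching transcript accessions to RefSeq (GRCm38.p6). limma 3.58.1 in R 4.3.3 fitted group with pair as a block (2 residual and 2.07 prior degrees of freedom), p-values were two-sided and Benjamini-Hochberg adjusted over all features, and the fit was tested on simulated data. The pairs come from the labels; deviations from group means correlated at -0.01, 0.14 and 0.00 within pairs 1 to 3. Alternatives are given in the closing section.

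The members, classes and gene lists were chosen with earlier results of these data known. Any collagen may be named; each class gives array values for its 3 largest differences, every gene past the threshold and every gene of opposite sign to its class median, and each list names up to 4 genes past the threshold. Serpinh1, Fkbp10, Dcn, Epcam, Krt8 and the untested collagens given with values were chosen after their values were seen.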

Additional observations from a re-analysis of the deposited data

How the results depend on the processing

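The count of 10 lower collagens was 10 to 14 with no replicate block (14), quantile normalization, median scaling, normexp, the deposited log2 values, the mean of the probes, every probe on its own, the shared slide or slide as a block. In these settings 2.35% to 4.91% of all features were lower. The count was 6 with no filter, beside 1.18% of all features, and 3 of 15 tested with detection required on all 6 arrays, beside 0.825%. Leaving out a pair or a line gave 0 to 14 lower collagens (0 without pair 3) and 0 to 2 higher ones, beside 0% to 5.78% of all features lower. One collagen, Col9a2, was higher (1) with median scaling and with normexp. Normexp, used on the median signal and chosen after seeing the data, narrowed the differences of genes undetected in SMC lines to -7.55 for Col1a1, -8.23 for Col3a1, -5.57 for Col5a2, -2.59 for Col4a5 and -7.01 for Col6a1. Among single-gene values under alternatives, 482 kept direction and side of the threshold, 36 newly passed, 26 no longer passed and 11 reversed. The reversals were Col4a6 (-3.10 with the mean of probes, -0.03 on the shared slide, -0.19 without pair 3, -0.18 without SMC line 3, with 0.72 without pair 1), Col8a1 (0.27 without SMC line 1) and Col20a1 (-0.72 on the shared slide, -0.29 without pair 1, -0.18 without pair 3, -0.05, -0.47 and -0.16 without SMC line 1, SMC line 3 and non-SMC line 1, with 0.72 without pair 2 and 0.77 without SMC line 2).

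Of all features, 4.91% were lower with no replicate block or median scaling, 2.91% with quantile normalization, 2.96% with normexp and 2.81% with the deposited values. The share was 3.08% on the shared slide, 2.35% with the slide block, 1.18% with no filter and 0.825% with detection on all arrays. It was 0% to 5.78% leaving out a pair or line. Lower folding genes numbered 4 with no replicate block, 1 with quantile normalization, the deposited values, no filter, the shared slide or the slide block, 0 with normexp or detection on all arrays, and 0 to 6 leaving out a pair or line. Processing genes numbered 5 with normexp, 2 with detection on all arrays, 4 on the shared slide and 0 to 7 leaving out a pair or line. Fibril-binding genes numbered 7 with no replicate block or the slide block, 8 with median scaling, 1 with detection on all arrays and 0 to 8 leaving out a pair or line. Receptors numbered 0 with detection on all arrays or the shared slide and 0 to 2 leaving out a pair or line. The cause of these shifts was not tested, except that the stricter filter tests fewer genes. Normexp on the mean signal and naming by the array's own gene names were not run, since the files used lack these columns. Signal near background limits the 15 tested collagens not detected on all arrays.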
